A study of Mus musculus with 4 samples.

Results

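The genes of the cytoplasmic ribosomal proteins were followed through single-cell RNA sequencing of mouse hippocampus and sensory cortex. Members were genes with a symbol of a large subunit protein (Rpl, Rplp) or a small subunit protein (Rps, Rpsa). After Rpl or Rps the symbol had to hold a number and at most 1 of the letters a, l and x, which leaves out Rpl36al. Members also had at least 100 unique molecular identifiers (UMIs, 1 per captured transcript) over all libraries, and pseudogenes marked "-ps" were left out. Of 32285 genes in the deposited matrices, 83 had such a symbol and 82 were members, 50 of the large and 32 of the small subunit. The exception, Rpl10l, a retrogene known from mouse testis, had 0 UMIs.

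All mice were labelled wild type (WT), and the labels give 3 mice per group without saying whether their cells were pooled. The 4 libraries were hippocampus titled DOCA-salt, hippocampus titled sham, cortex titled DOCA-salt and cortex titled sham. In DOCA-salt treatment a mineralocorticoid given with salt raises blood pressure, and sham mice are its controls; age, dose and duration are not given in the sources used here. With 1 library per group there was no replicate check of any difference between groups. No test was run, and every interval below is a 95% interval of counting error only. For 2 of the 4 libraries, DOCA-salt cortex and sham hippocampus, the treatment field names the other treatment than the title does. The titles were followed, and each direction between treatments rests on them.

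A ribosome holds 1 copy of nearly every ribosomal protein, so cells make these proteins together. Their mRNAs begin with a cytosine followed by a run of pyrimidines, the 5′ terminal oligopyrimidine (TOP) tract, through which Larp1 and the mTOR pathway set how strongly they are translated. Counts of mRNA do not show that translation. In brain the share of ribosomal protein transcripts is known to differ widely between cell types, and in lymphocytes it is commonly large.

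Start-site windows show this tract in members whose annotated start opens it, beside paralogs with no such tract at the annotated start base. Each window runs from 10 bases before the annotated start to 20 bases from it, on the gene's strand, from RefSeq (GRCm38.p6), and capitals mark a C at the start followed by at least 4 pyrimidines. The first 6 are members described below, and the others are the paralogs Rps27l, Rpl22l1 and Rpl7l1, whose windows hold pyrimidine runs elsewhere or none.
Rplp2, chr7:141447641-141447670, + strand: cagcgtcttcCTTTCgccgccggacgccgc
Rpl35, chr2:39005112-39005141, - strand: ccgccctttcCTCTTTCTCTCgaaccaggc
Rpl15, chr14:18270967-18270996, - strand: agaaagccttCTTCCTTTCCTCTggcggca
Rps6, chr4:86857348-86857377, - strand: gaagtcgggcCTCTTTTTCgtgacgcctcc
Rpl38, chr11:114668570-114668599, + strand: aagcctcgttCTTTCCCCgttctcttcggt
Rps27, chr3:90213629-90213658, - strand: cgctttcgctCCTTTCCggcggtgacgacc
Rps27l, chr9:66946076-66946105, + strand: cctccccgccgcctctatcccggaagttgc
Rpl22l1, chr3:28805498-28805527, + strand: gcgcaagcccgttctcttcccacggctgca
Rpl7l1, chr17:46782637-46782666, - strand: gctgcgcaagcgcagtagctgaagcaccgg
The promoter table held 62 of the 82 members. Of these, 13 (21.0%) had a C at the annotated start followed by at least 4 C or T on the gene's strand, against 3.01% of all 27025 symbols in the table. The match depends on the annotated start base, so a start set a few bases away hides a tract. Of the members printed, Rps27l had 2 starts in the table, and the one with the lower coordinate is shown. Rps29, Rplp1, Rpl30 and Rpl36 were among the 20 members without an entry.

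The deposited matrices held 11159 to 11402 barcodes and 66824217 to 70173987 UMIs per library. Requiring 300 genes and no more than 20% mitochondrial UMIs left 11086 to 11354 cells per library, at a median of 5599.5 to 5891 UMIs. Pairs of libraries shared 94 to 105 barcode sequences. Cells were assigned to classes by 18 lists of marker genes, none of them ribosomal, and 88.1% to 91.7% of kept cells found a class. Each is called after its list, as microglia-like and so on, and no deposited annotation was used. All markers of the own list were detected in each of the 8 classes compared between libraries. The sham hippocampus library stood apart: it had 289 choroid plexus-like cells against 4, 1 and 2 in the DOCA-salt hippocampus, DOCA-salt cortex and sham cortex libraries. The choroid plexus markers, led by Ttr, summed to 3186 counts per 1000000 UMIs (CPM) in its oligodendrocyte-like cells, against 24.7, 16.5 and 11.4 CPM in those libraries in the same order.

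Ribosomal protein transcripts made up 7.15% of UMIs in DOCA-salt hippocampus and 6.56% in sham hippocampus, and 6.20% in DOCA-salt cortex and 5.69% in sham cortex. The counts came from many members, with 21.7% of them from the 10 members with the most UMIs. Among these were Rplp1, Rps24, Rpl13, Rpl21, Rps27a, Rpl41, Rps14, Rpl23 and Rpl19. In every library 76 of 82 members lay between 200 and 2400 CPM. The 3 members under 100 CPM throughout were the paralogs Rpl7l1, Rpl39l and Rpl3l. Spearman's rho of the members' levels between libraries was 0.971 to 0.990 over 82 genes. The kit counts transcripts at their 3′ end, so levels are not divided by length. Reads that also match one of the many ribosomal protein pseudogenes can be lost for some members more than for others, which limits any comparison of level between members.

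The share differed far more between cell classes than between libraries. T or NK-like cells had the highest share in every library, at 34.1% in DOCA-salt hippocampus (61 cells), 29.6% in sham hippocampus (26 cells), 32.0% in DOCA-salt cortex (38 cells) and 30.4% in sham cortex (21 cells). B-like cells followed with 28.7%, 17.4%, 29.1% and 27.2% in the same order, from 51, 17, 28 and 12 cells. The 17.4% of sham hippocampus weights 17 cells by their UMIs, and the mean of their single-cell shares was 22.9%. Monocyte or dendritic-like cells, compared only where at least 10 cells were found, had 22.6% in DOCA-salt hippocampus. Both lymphocyte-like classes stood above every class of neural, vascular and resident immune cells in each library.

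Among resident cells, immature neuron-like cells had the highest share, 14.1% in DOCA-salt hippocampus, 13.8% in sham hippocampus and 14.3% in DOCA-salt cortex. Neuron-like cells, few in these dissociations, had 9.75% in DOCA-salt hippocampus and 9.97% in sham hippocampus. Endothelial-like cells ranged from 10.3% to 11.3% over the 4 libraries, border macrophage-like cells from 8.81% to 10.9%, and microglia-like cells from 8.07% to 9.91%. In each library the order was endothelial-like, border macrophage-like and microglia-like cells, although the ranges overlap between libraries. Pericyte-like cells ranged from 6.76% to 7.24%, oligodendrocyte-like cells from 5.10% to 5.29% and astrocyte-like cells from 3.12% to 3.67%, and these ranges do not overlap. Erythroid-like cells, whose UMIs are mostly haemoglobin, were lowest at 0.941% to 1.47%. The highest class exceeded the lowest 27.7-fold in DOCA-salt hippocampus, 20.4-fold in sham hippocampus, 21.8-fold in DOCA-salt cortex and 32.3-fold in sham cortex. A share depends on every other transcript of the cell, and fewer ribosomal protein mRNAs cannot be told apart here from more of the rest.

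**Figure D1:**
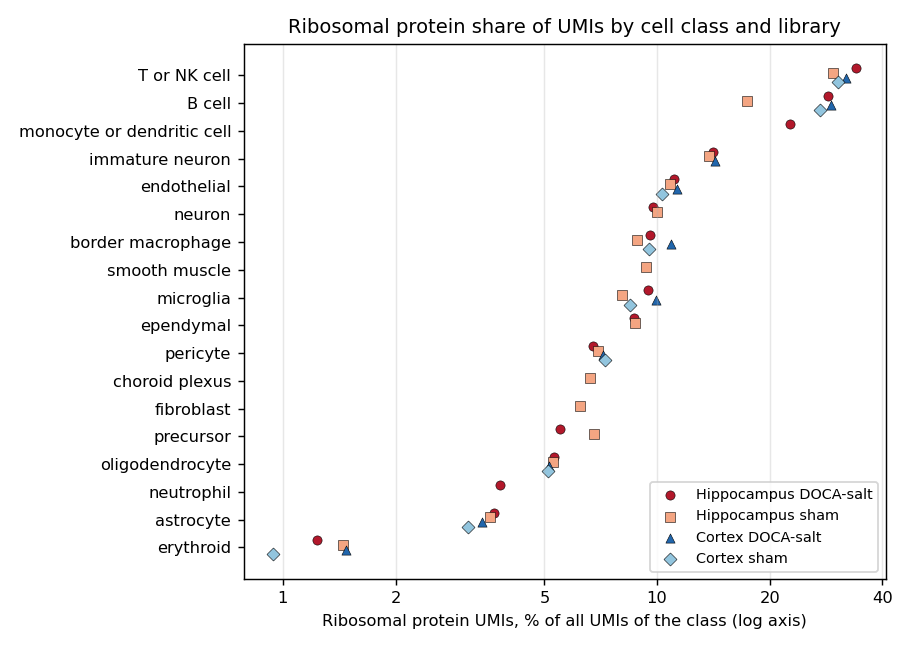
Ribosomal protein share of UMIs (percent of all UMIs of a class, log axis) for each cell class with at least 10 cells in a library; each point is 1 library. T or NK-like cells sit between 29.6% and 34.1% and astrocyte-like cells between 3.12% and 3.67%. Both DOCA-salt points of microglia-like cells lie above both sham points, as do those of border macrophage-like, endothelial-like, T or NK-like and B-like cells.

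Between treatments, microglia-like cells had the higher share after DOCA-salt in both tissues and oligodendrocyte-like cells nearly the same share. In hippocampus, microglia-like cells had 9.43% (interval 9.42% to 9.45%) in DOCA-salt and 8.07% (8.06% to 8.08%) in sham, a ratio of 1.17. In cortex they had 9.91% (9.90% to 9.93%) in DOCA-salt and 8.47% (8.45% to 8.48%) in sham, also a ratio of 1.17. These values rest on 2738 and 2496 cells in hippocampus and 2472 and 2620 cells in cortex, DOCA-salt given before sham. Both DOCA-salt libraries lay above both sham libraries, as they did in border macrophage-like, endothelial-like, T or NK-like and B-like cells. Mitochondrially encoded UMIs, a sign of RNA quality, were 1.38% of the total of these cells in DOCA-salt and 1.04% in sham in hippocampus, and 1.58% in DOCA-salt and 1.2% in sham in cortex. With mitochondrial and haemoglobin UMIs left out of the total the ratio was 1.17 in hippocampus and 1.18 in cortex. Over the other ways of computing the ratio it was 1.15 to 1.17 in hippocampus and 1.15 to 1.24 in cortex.

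Oligodendrocyte-like cells had 5.29% in DOCA-salt and 5.27% in sham in hippocampus, and 5.13% in DOCA-salt and 5.10% in sham in cortex. Their mitochondrial UMIs were 2.65% in DOCA-salt and 2.13% in sham in hippocampus, and 2.76% in DOCA-salt and 2.25% in sham in cortex. Their ratios, 1.0 and 1.01, changed side of 1 with the way of computing. Border macrophage-like cells, the macrophages of meninges and vessels, had ratios of 1.09 (1.07 to 1.10) in hippocampus and 1.15 (1.13 to 1.17) in cortex, from 54 to 96 cells per library. Ratios of endothelial-like cells were 1.03 and 1.11, of astrocyte-like cells 1.03 and 1.09, and of pericyte-like cells 0.977 and 0.989, hippocampus given before cortex. T or NK-like cells had ratios of 1.15 and 1.05 from 21 to 61 cells per library. Erythroid-like cells went opposite ways, with 0.850 in hippocampus and 1.56 in cortex. The ratio of hippocampus turned to 1.2 once haemoglobin and mitochondrial UMIs were left out of the total, and that of cortex lay between 1.01 and 1.57 over the alternatives.

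Markers of other classes also moved with treatment in microglia-like cells. Astrocyte markers (10 of 10 detected in each library, led by Slc1a3) summed to 2536 CPM in DOCA-salt and 382 CPM in sham in hippocampus, and to 2978 CPM in DOCA-salt and 1196 CPM in sham in cortex. Oligodendrocyte markers (10 of 10) summed to 2498 CPM in DOCA-salt and 5584 CPM in sham in hippocampus, and to 1817 CPM in DOCA-salt and 2206 CPM in sham in cortex. Markers of the 2 classes with the highest share were low. T or NK markers summed to 6.52 CPM in DOCA-salt and 2.91 CPM in sham in hippocampus, and to 3.84 CPM in DOCA-salt and 1.91 CPM in sham in cortex. Between 0 and 2 of those 9 markers were at 0. B markers, led by Ighm, summed to 258 CPM in DOCA-salt and 201 CPM in sham in hippocampus, and to 215 CPM in DOCA-salt and 181 CPM in sham in cortex. Monocyte or dendritic markers, led by H2-Ab1, summed to 54.2 CPM in DOCA-salt and 35.8 CPM in sham hippocampus. In cortex they summed to 68.1 CPM in DOCA-salt and 54.4 CPM in sham. Choroid plexus markers, led by Ttr, summed to 31.8 CPM in DOCA-salt and 3792 CPM in sham hippocampus. Their sums in cortex were 19.9 CPM in DOCA-salt and 12.7 CPM in sham. The astrocyte and oligodendrocyte lists mark classes with a lower ribosomal protein share than microglia-like cells. The part of any of these lists in the result was not tested.

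The difference was present across the depth range of microglia-like cells. Between 5000 and 10000 UMIs per cell the share was 9.18% in DOCA-salt and 8.26% in sham in hippocampus, and 9.83% in DOCA-salt and 8.61% in sham in cortex. It was higher in DOCA-salt in the other 3 depth ranges too, in both tissues. With each cell thinned to 1000 UMIs, the median cell had 8.40% in DOCA-salt and 7.40% in sham in hippocampus, and 9.20% in DOCA-salt and 7.70% in sham in cortex. The 95th percentiles lay further apart, at 16.7% in DOCA-salt and 13.5% in sham in hippocampus and at 16.2% in DOCA-salt and 13.9% in sham in cortex. The median oligodendrocyte-like cell had 5.30% in both hippocampus libraries and 5.20% in both cortex libraries.

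A tail of microglia-like cells exceeded 15% of 1000 UMIs, a limit chosen after the values were seen. In hippocampus it held 239 of 2661 cells in DOCA-salt, or 8.98% (exact interval 7.92% to 10.1%), and 70 of 2430 cells in sham, or 2.88% (2.25% to 3.63%). In cortex it held 190 of 2417 cells in DOCA-salt, or 7.86% (6.82% to 9.01%), and 78 of 2562 cells in sham, or 3.04% (2.41% to 3.79%). No oligodendrocyte-like cell exceeded the limit, 0 of 2887 to 4839 cells per library, with exact upper limits of 0.0762% to 0.128%. In the tail cells the microglia markers summed to 16934 and 18445 CPM in DOCA-salt and sham hippocampus and to 15885 and 16403 CPM in DOCA-salt and sham cortex. Below the limit the same markers stood at 22301, 22003, 18555 and 20234 CPM in that order. Mitochondrial UMIs in the tail were 1.86% in DOCA-salt and 1.49% in sham in hippocampus and 1.61% in DOCA-salt and 1.32% in sham in cortex. In the cells below the limit they were 1.33%, 1.03%, 1.58% and 1.19% in the same order, lower than in the tail in each library, and their part in the tail was not tested. The tail's median depth was 6556 UMIs in DOCA-salt hippocampus, 2682 in sham hippocampus, 6138 in DOCA-salt cortex and 5834 in sham cortex, so the sham hippocampus tail was shallow.

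**Figure D2:**
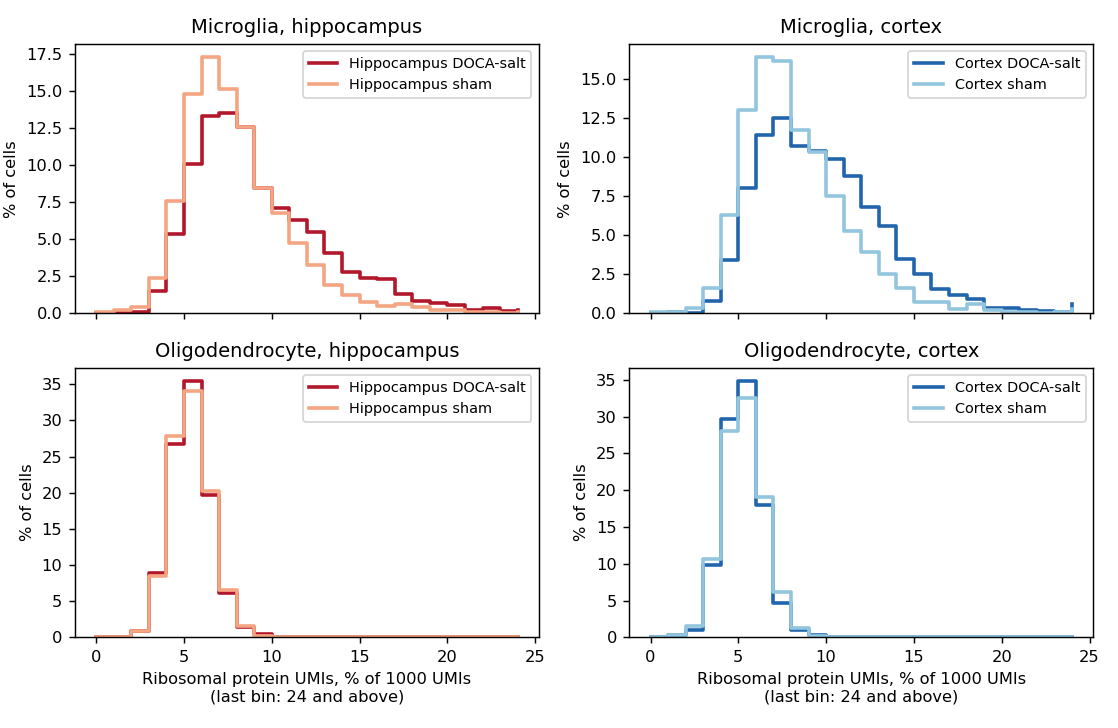
Distribution of single cells by ribosomal protein share (percent of 1000 UMIs, each cell thinned to that depth; percent of cells on the vertical axis) in microglia-like and oligodendrocyte-like cells, 1 line per library. In microglia-like cells the DOCA-salt lines lie to the right, with 8.98% and 7.86% of cells over 15%, against 2.88% and 3.04% in sham; in oligodendrocyte-like cells the lines overlap.

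Single members showed the same shift in microglia-like cells, spread over nearly all of them. A member was counted as higher or lower when its CPM differed by more than 1.2-fold and it had at least 100 UMIs over both libraries, which 81 members reached in each tissue; all but Rpl3l were counted in both. In hippocampus 21 of 81 members were higher in DOCA-salt and 0 lower, where 9.97% of all genes counted were higher and 15.7% lower. In cortex 22 of 81 were higher and 0 lower, where 13.2% of all genes were higher and 11.2% lower. With ratios centred on the median of all genes, 35 were higher in hippocampus and 30 in cortex, and 0 lower in either. The share of all genes was not computed under that centring, so these counts cannot be set against it. Ratios above 1 were found in 79 of 81 members (hippocampus) and 78 of 81 (cortex), against 44.8% and 46.7% of all genes. Over 1.5-fold, 2 members were higher in hippocampus and 3 in cortex, where 2.67% and 3.30% of all genes were. Rpl39l was among them in both tissues, and it reached 100 UMIs through its DOCA-salt counts. The median log2 ratio of the members was 0.22 in hippocampus and 0.23 in cortex, against -0.03 and -0.02 for all genes. Both subunits took part, with medians of 0.22 in each tissue for the large and 0.22 in hippocampus and 0.24 in cortex for the small subunit.

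**Figure D3:**
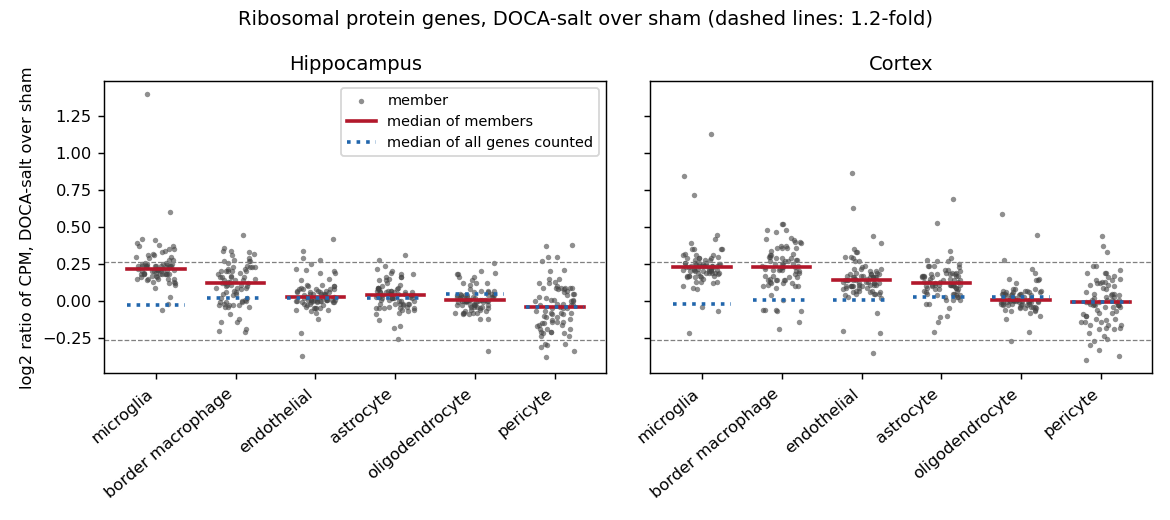
log2 ratio of CPM, DOCA-salt over sham, for each ribosomal protein gene with at least 100 UMIs (points) in 6 cell classes, with the median of the members and the median of all genes counted; dashed lines mark 1.2-fold. In microglia-like cells the median of the members is 0.22 in hippocampus and 0.23 in cortex, against 0.01 and 0.01 in oligodendrocyte-like cells.

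The stalk of the large subunit, which recruits elongation factors, followed the bulk. Rplp1 (chr9:61913284-61914542, GRCm38) had 4169 CPM in DOCA-salt and 3533 CPM in sham microglia-like cells of hippocampus, a ratio of 1.18 (1.17 to 1.19). In cortex Rplp1 had 4338 CPM in DOCA-salt and 3730 CPM in sham, a ratio of 1.16 (1.15 to 1.18). Rplp2 had 1588 CPM in DOCA-salt and 1309 CPM in sham in hippocampus and 1600 CPM in DOCA-salt and 1318 CPM in sham in cortex, with ratios of 1.21 in both. Rplp0, the base of the stalk, had ratios of 1.14 and 1.12 in hippocampus and cortex, so of the 3 stalk genes only Rplp2 passed 1.2-fold.

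Genes for proteins of the catalytic centre and of ribosome assembly had ratios near those of the stalk genes, apart from Rpl10 in cortex. Rpl3, next to the peptidyl transferase centre, had 830 CPM in DOCA-salt and 683 CPM in sham in hippocampus, a ratio of 1.22, and 830 CPM in DOCA-salt and 729 CPM in sham in cortex, a ratio of 1.14. Rpl10, which joins the large subunit last, had 1411 CPM in DOCA-salt and 1204 CPM in sham in hippocampus, and 1491 CPM in DOCA-salt and 1138 CPM in sham in cortex, with ratios of 1.17 and 1.31. Rpl10 was over 1.2-fold higher in 5 of 7 classes of cortex. Over all cells it made up 1.02% of ribosomal protein UMIs in sham cortex, against 1.12% to 1.15% in the other libraries. A property of the sham cortex library cannot be told apart from treatment. Rpl5 and Rpl11, which bind the ubiquitin ligase Mdm2 when free of the ribosome, had ratios of 1.12 and 1.11 in hippocampus and 1.09 and 1.18 in cortex. Rpl13a and Rpl26 had 1.19 and 1.16 in hippocampus and 1.18 and 1.15 in cortex, all under the fold counted.

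In the small subunit, Rps6, the main target of the S6 kinases below mTOR, had 497 CPM in DOCA-salt and 407 CPM in sham in hippocampus, a ratio of 1.22 (1.18 to 1.26). In cortex Rps6 had 525 CPM in DOCA-salt and 385 CPM in sham, a ratio of 1.36 (1.32 to 1.41). Rps6 was over 1.2-fold higher in 4 of 7 classes of cortex. Over all cells it made up 0.492% of ribosomal protein UMIs in sham cortex, against 0.553% to 0.595% in the other libraries. A property of the sham cortex library cannot be told apart from treatment. Rpsa, also known as a laminin receptor, had ratios of 1.17 and 1.23 in hippocampus and cortex, and Rps3, at the mRNA entry, 1.12 and 1.06. Rps14 had 1.11 and 1.17 and the X-linked Rps4x 1.18 and 1.17. Rps27a, made as a fusion with ubiquitin, had 1.09 and 1.14. The counted ratios thus came from part of the subunit, while the others shared the direction at smaller size.

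The 16 members over 1.2-fold higher in microglia-like cells of both tissues were Rpl12, Rpl31, Rpl35, Rpl35a, Rpl36, Rpl36a, Rpl37a, Rpl39, Rpl39l, Rplp2, Rps6, Rps21, Rps23, Rps25, Rps27 and Rps29. They were 76.2% of the hippocampus list and 72.7% of the cortex list. The same overlap was not computed for all genes, so it cannot be called particular to the members. Counted in hippocampus alone were Rpl3, Rpl37, Rpl38, Rps19 and Rps28, and among those in cortex alone were Rpl10, Rpl15, Rpl32, Rps15a and Rpsa. Whether these members differ between tissues was not tested, and several lie close to the limit on both sides.

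Rps29, a small zinc-binding protein of the small subunit (chr12:69157722-69159186, GRCm38), had the highest median ratio in hippocampus over the classes compared. In microglia-like cells Rps29 had 1844 CPM in DOCA-salt and 1214 CPM in sham in hippocampus, a ratio of 1.52 (1.49 to 1.55), and 1723 CPM in DOCA-salt and 1353 CPM in sham in cortex, a ratio of 1.27 (1.25 to 1.30). In oligodendrocyte-like cells, whose total share hardly differed, Rps29 still had 521 CPM in DOCA-salt and 435 CPM in sham in hippocampus, and 449 CPM in DOCA-salt and 406 CPM in sham in cortex. Its ratio was above 1 in 8 of 8 classes in hippocampus, with log2 ratios from 0.26 to 0.60. In cortex Rps29 lay slightly below 1 in border macrophage-like cells, at 0.956, and in pericyte-like cells, at 0.981.

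Rpl30 (chr15:34440505-34443640, GRCm38), which in yeast binds its own transcript, went the other way from most members. Its ratio was below 1 in 8 of 8 classes in hippocampus, with a median log2 ratio of -0.30, and in 7 of 7 in cortex, with a median of -0.21. In oligodendrocyte-like cells Rpl30 had 500 CPM in DOCA-salt and 634 CPM in sham in hippocampus, a ratio of 0.790 (0.773 to 0.808), and 470 CPM in DOCA-salt and 565 CPM in sham in cortex, a ratio of 0.831 (0.808 to 0.855). In microglia-like cells Rpl30 stayed nearer to 1, with 1071 CPM in DOCA-salt and 1117 CPM in sham in hippocampus and 1068 CPM in DOCA-salt and 1118 CPM in sham in cortex. It was the only member counted as lower in oligodendrocyte-like cells of hippocampus. Rps2 was also among the lowest in both tissues, with median log2 ratios of -0.16 and -0.14. The other members at the ends of the order were Rps28, Rps18 and Rpl22l1 at the top in hippocampus (0.31, 0.25 and 0.23), Rpl36 and Rpl10 in cortex (0.35 and 0.33), and at the bottom Rpl15 and Rpl7a in hippocampus (-0.12 and -0.05) and Rpl7l1 and Rpl6 in cortex (-0.18 and -0.02). Over the classes compared, 60 of 80 members had a median above 0 in both tissues and 2 below 0 in both. The same count was not made for all genes, so it cannot be called particular to the members.

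Rpl15 and Rpl35, both mutated in some human families with Diamond-Blackfan anaemia, had the highest median ratios in cortex. Rpl15 (chr14:18267823-18271391, GRCm38) had 208 CPM in DOCA-salt and 116 CPM in sham in cortex microglia-like cells, a ratio of 1.80 (1.70 to 1.90), and 187 CPM in DOCA-salt and 176 CPM in sham in hippocampus, a ratio of 1.06 (1.01 to 1.12). Over all cells Rpl15 had 160 and 168 CPM in DOCA-salt and sham hippocampus and 150 and 90.4 CPM in DOCA-salt and sham cortex, so the sham cortex library was the low one. Rpl35 was likewise lowest in sham cortex, with 323 and 285 CPM in DOCA-salt and sham hippocampus and 279 and 185 CPM in DOCA-salt and sham cortex. In cortex Rpl15 was higher by more than 1.2-fold in all 5 classes in which it was counted and Rpl35 in all 7. These differences ran through classes of 1 library rather than through 1 class, and a property of that library cannot be told apart from treatment.

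Among the other classes, border macrophage-like cells had 12 of 79 members higher and 0 lower in hippocampus, where 22.5% of all genes were higher and 22.9% lower. In cortex they had 31 of 78 higher and 0 lower, where 19.9% were higher and 21.8% lower. T or NK-like cells had 25 of 78 members higher and 0 lower in hippocampus (102 of 511 genes in all, or 20%, and 27.8%) and 14 of 78 higher and 1 lower in cortex (18.6% and 20.2%). Their member medians on the log2 scale were 0.22 in hippocampus and 0.12 in cortex, against -0.01 and 0.00 for all genes, from 21 to 61 cells per library. All genes include the members, in these cells 78 of 511 genes counted in hippocampus and 78 of 263 in cortex. Endothelial-like cells had 4 higher and 1 lower of 80 in hippocampus (18.5% and 13.5%) and 12 higher and 1 lower of 80 in cortex (16.6% and 14.8%). Astrocyte-like cells had 2 higher and 0 lower of 80 in hippocampus (15.4% and 12.6%) and 7 higher and 0 lower of 80 in cortex (16.9% and 8.78%). Oligodendrocyte-like cells had 0 higher and 1 lower of 80 in hippocampus (20.6% and 6.60%), and 3 higher and 1 lower of 80 in cortex (19.8% and 8.67%). Pericyte-like cells had 5 higher and 6 lower of 79 in hippocampus (17.5% and 21.5%) and 3 higher and 5 lower of 78 in cortex (19.2% and 19.0%). In astrocyte-like, endothelial-like and oligodendrocyte-like cells the share of members called was below that of all genes in both directions. The counts of border macrophage-like cells rest on 96 and 87 cells in hippocampus and 66 and 54 in cortex, DOCA-salt given before sham. In them microglia markers (10 of 10) summed to 3435 CPM in DOCA-salt and 2582 CPM in sham in hippocampus and to 2982 CPM in DOCA-salt and 2576 CPM in sham in cortex. Oligodendrocyte markers (10 of 10) summed to 1999 CPM in DOCA-salt and 6594 CPM in sham in hippocampus and to 1615 CPM in DOCA-salt and 1900 CPM in sham in cortex, and the part of either list in the result was not tested.

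Erythroid-like cells followed the shift of all their genes. In hippocampus 5 of 69 members were higher and 40 lower, with a member median of -0.33 against -0.35 for all genes (20.9% higher, 54.9% lower). In cortex 28 of 30 members were higher and 0 lower, with a median of 0.64 against 0.57 for all genes (77.9% higher, 1.34% lower). All genes include the members, which were 69 of 268 genes counted in hippocampus and 30 of 149 in cortex. The likeness is therefore partly built in.

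Other parts of the translation machinery were read in microglia-like cells from lists of genes that are not members. Fau, Rack1 and Rpl36al, ribosomal proteins whose symbols do not match the rule for members, had a median log2 ratio of 0.23 in hippocampus and 0.20 in cortex. Fau, encoding a ubiquitin-like protein fused to a small subunit protein, had 3162 CPM in DOCA-salt and 2701 CPM in sham in hippocampus and 3387 CPM in DOCA-salt and 2948 CPM in sham in cortex. As above, 9.97% of all genes were higher and 15.7% lower in hippocampus and 13.2% higher and 11.2% lower in cortex. Of 25 initiation and elongation factors, 0 were higher and 0 lower in hippocampus, and 0 were higher and 1 (Eif2s1) lower in cortex, with medians of 0.08 and 0.04. Eef1a1, the factor that brings transfer RNA to the ribosome, had 3598 CPM in DOCA-salt and 3135 CPM in sham in hippocampus and 3700 CPM in DOCA-salt and 3248 CPM in sham in cortex. Of 15 other TOP mRNAs and hosts of small nucleolar RNAs, Snhg8 was higher in both tissues and Snhg1 lower in cortex, with medians of 0.11 and 0.14.

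Lists further from the ribosome itself had medians near 0 in microglia-like cells, and their counts are to be read against the same shares of all genes, 9.97% higher and 15.7% lower in hippocampus and 13.2% and 11.2% in cortex. Of 30 ribosome biogenesis genes, 2 were higher and 4 lower in hippocampus and 1 higher and 3 lower in cortex, with medians of -0.01 and -0.06. Of 75 mitochondrial ribosomal protein genes, 2 were higher and 2 lower in each tissue, with medians of -0.06 and 0.00. Of 17 counted genes that control translation, such as Larp1 and the mTOR inhibitor Ddit4, 0 were higher and 1 (Ddit4) lower in hippocampus. In cortex Larp1 and Tsc2 were higher and Atf4 lower, with medians of 0.05 in hippocampus and 0.03 in cortex. Border macrophage-like cells had 2 of 20 counted translation factors higher and 1 lower in hippocampus, with a median of 0.12, where 22.5% of all genes were higher and 22.9% lower. In cortex 10 of 19 were higher and 1 lower in them, with a median of 0.28, where 19.9% were higher and 21.8% lower. The lists are described by their counts, and no difference between lists was tested.

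Members with short mRNAs had larger ratios in microglia-like cells, as in several other comparisons. The 8 members with an annotated mRNA under 450 nucleotides (Rps28, Rps27, Rpl38, Rpl36, Rps29, Rps21, Rplp2 and Rpl41) had a median log2 ratio of 0.38 in hippocampus, against 0.18 for the 40 members of at least 700 nucleotides. In cortex the medians were 0.29 and 0.21. Spearman's rho of log2 ratio with length was -0.40 in hippocampus and -0.33 in cortex over 81 members, which share libraries and base composition. Over the other genes counted it was -0.07 in both tissues. Short genes were higher there too, with medians over 51 other genes under 450 nucleotides of 0.07 in hippocampus and 0.18 in cortex, against -0.03 and -0.02 for those of at least 700 nucleotides. The length limits were chosen after the values were seen. In oligodendrocyte-like cells the short members had medians of 0.17 and 0.11 in hippocampus and cortex and the long ones 0.00 in both. The order did not hold in every class. In cortex the short members had medians of 0.18 in border macrophage-like and -0.05 in pericyte-like cells, against 0.25 and -0.03 for the long ones. Between treatments rho was -0.34 and -0.27 in endothelial-like and -0.20 and -0.25 in astrocyte-like cells, hippocampus before cortex. Hippocampus over cortex, it was -0.21 and -0.32 in oligodendrocyte-like, -0.32 and -0.28 in astrocyte-like and -0.29 and -0.14 in microglia-like cells, DOCA-salt before sham. It was above 0 under sham in border macrophage-like (0.21), endothelial-like (0.08) and pericyte-like cells (0.22), and by treatment in border macrophage-like cells of cortex (0.25).

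**Figure D4:**
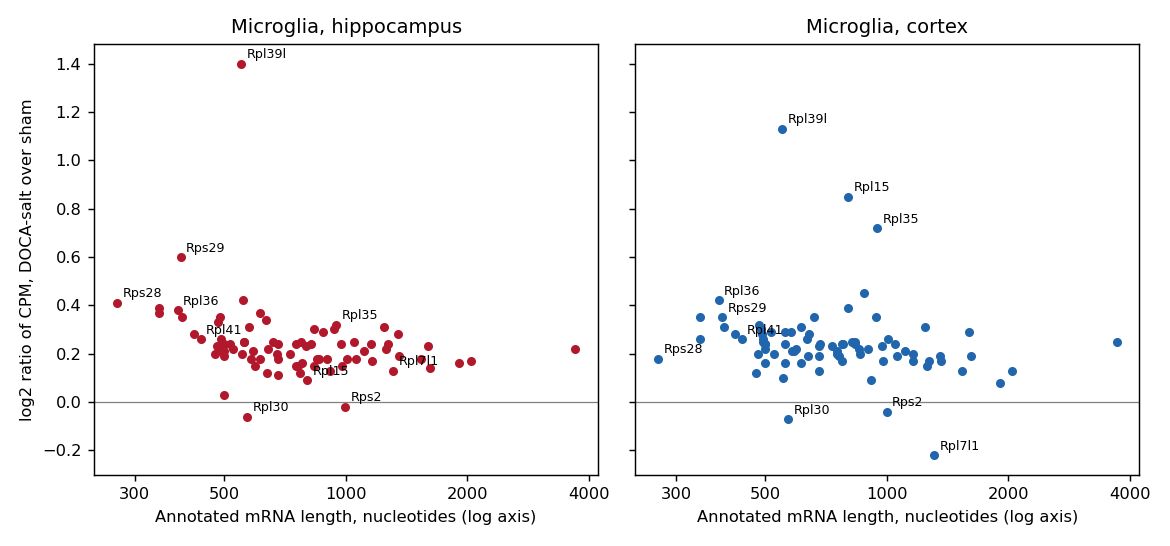
log2 ratio of CPM, DOCA-salt over sham, in microglia-like cells against annotated mRNA length in nucleotides (log axis), 1 point per ribosomal protein gene, for hippocampus and cortex. The 8 members under 450 nucleotides have medians of 0.38 and 0.29, against 0.18 and 0.21 for members of at least 700 nucleotides.

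Between tissues, the share over all cells was 1.15 times as high in hippocampus as in cortex under DOCA-salt and under sham. The share over all cells depends on the number of cells of each class. Astrocyte-like cells, with a low share, numbered 1761 and 954 in DOCA-salt and sham hippocampus and 3928 and 3412 in DOCA-salt and sham cortex. Their part in the 1.15 was not tested. Microglia-like cells had the opposite order, with ratios of 0.952 (0.95 to 0.954) under DOCA-salt and 0.953 (0.951 to 0.955) under sham. No member differed by more than 1.2-fold in microglia-like cells under DOCA-salt (11.1% of all genes higher, 14.2% lower), and under sham 2 of 80 were higher and 0 lower (16.1% and 14.2%). Astrocyte-like cells had ratios of 1.08 under DOCA-salt and 1.15 under sham. In them 6 of 80 members were higher in hippocampus under DOCA-salt (15.2% of all genes) and 23 of 80 under sham (21.1%), and 0 were lower under either (15.6% and 21.3%). Oligodendrocyte-like cells had a ratio of 1.03 under both. Border macrophage-like cells had 0.875 under DOCA-salt and 0.928 under sham, with 1 member higher and 24 lower of 79 under DOCA-salt (19.6% and 18.8% of all genes) and 2 higher and 4 lower under sham (22.5% and 25.8%). The same 4 libraries give these ratios and those between treatments.

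Classes also differed in which ribosomal proteins their transcripts encode. A member's part of the ribosomal protein UMIs does not depend on the total share. Among 79 members counted in 15 classes, the highest class exceeded the lowest by a median of 1.77-fold. Within a class this composition was much alike between libraries, with a lowest rho between libraries of 0.985 in microglia-like, 0.984 in endothelial-like and 0.983 in oligodendrocyte-like cells. It was lower in classes of few cells, down to 0.686 in choroid plexus-like cells. Libraries share the mapping of each gene, so these correlations are descriptions.

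Macrophages carried the most Rplp1. It made up 4.42%, 4.38%, 4.38% and 4.40% of ribosomal protein UMIs in microglia-like cells of DOCA-salt hippocampus, sham hippocampus, DOCA-salt cortex and sham cortex. In border macrophage-like cells Rplp1 made up 4.39%, 4.86%, 4.24% and 5.12% in the same order, and in oligodendrocyte-like cells 2.42%, 2.37%, 2.35% and 2.33%. Macrophage ranges lay above the oligodendrocyte range in all libraries. Rps29 was also highest in border macrophage-like cells, at 2.18% to 2.81% over the libraries, against 0.796% to 0.986% in oligodendrocyte-like cells.

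Endothelial-like and ependymal-like cells had more Rpl38 and Rpl41, both small proteins, than microglia-like cells. Rpl38, which in mice is needed for normal axial skeleton patterning, made up 2.02%, 1.72%, 1.77% and 1.75% in endothelial-like cells of DOCA-salt hippocampus, sham hippocampus, DOCA-salt cortex and sham cortex, against 0.753%, 0.680%, 0.674% and 0.658% in microglia-like cells. In ependymal-like cells Rpl38 made up 1.72% in DOCA-salt hippocampus (64 cells) and 1.82% in sham hippocampus (70 cells). Rpl41, the shortest ribosomal protein, made up 2.69% to 2.86% in endothelial-like cells, 1.40% to 1.56% in microglia-like cells and 1.10% to 1.35% in T or NK-like cells. In choroid plexus-like cells of sham hippocampus, the only library with many of them, Rpl41 reached 5.0% and Rpl38 1.33%. Rpl41 also exceeded the endothelial range in ependymal-like cells, with 4.08% in DOCA-salt hippocampus and 3.74% in sham hippocampus, and in erythroid-like cells, with 3.17% to 4.91%.

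Lymphocytes differed from glia in several members. Rpl12, at the base of the stalk, made up 1.25%, 1.31%, 1.36% and 1.32% in T or NK-like cells of DOCA-salt hippocampus, sham hippocampus, DOCA-salt cortex and sham cortex, against 0.526%, 0.488%, 0.510% and 0.489% in oligodendrocyte-like cells. Rpl31 made up 0.291% to 0.411% in T or NK-like cells against 1.0% to 1.05% in astrocyte-like cells. Rps27 reached 1.64% to 2.12% in B-like cells, against 0.818% to 0.980% in oligodendrocyte-like cells. In none of these pairs did the ranges over the 4 libraries overlap.

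Rpl13 was near 2% in most classes but made up 5.77% in DOCA-salt hippocampus, 3.84% in sham hippocampus, 6.66% in DOCA-salt cortex and 8.40% in sham cortex in oligodendrocyte precursor-like cells. These rest on 15, 18, 9 and 8 cells and on 486, 398, 178 and 171 UMIs of Rpl13. All 4 values lay above the highest of the other 14 classes whose composition was compared, 2.75% in erythroid-like cells. Rpl15 also ranked among the most variable members, at 0.395% in immature neuron-like and 0.114% in erythroid-like cells with libraries summed. The log2 spread between these classes was 1.95 in DOCA-salt hippocampus, 0.85 in sham hippocampus and 2.22 in DOCA-salt cortex. Sham cortex gave no value, since Rpl15 was at 0 in its erythroid-like cells. Apart from this spread, Rpl15 was lower in sham cortex in most classes. In microglia-like cells it made up 0.136% there, against 0.198%, 0.218% and 0.210% in DOCA-salt hippocampus, sham hippocampus and DOCA-salt cortex.

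**Figure D5:**
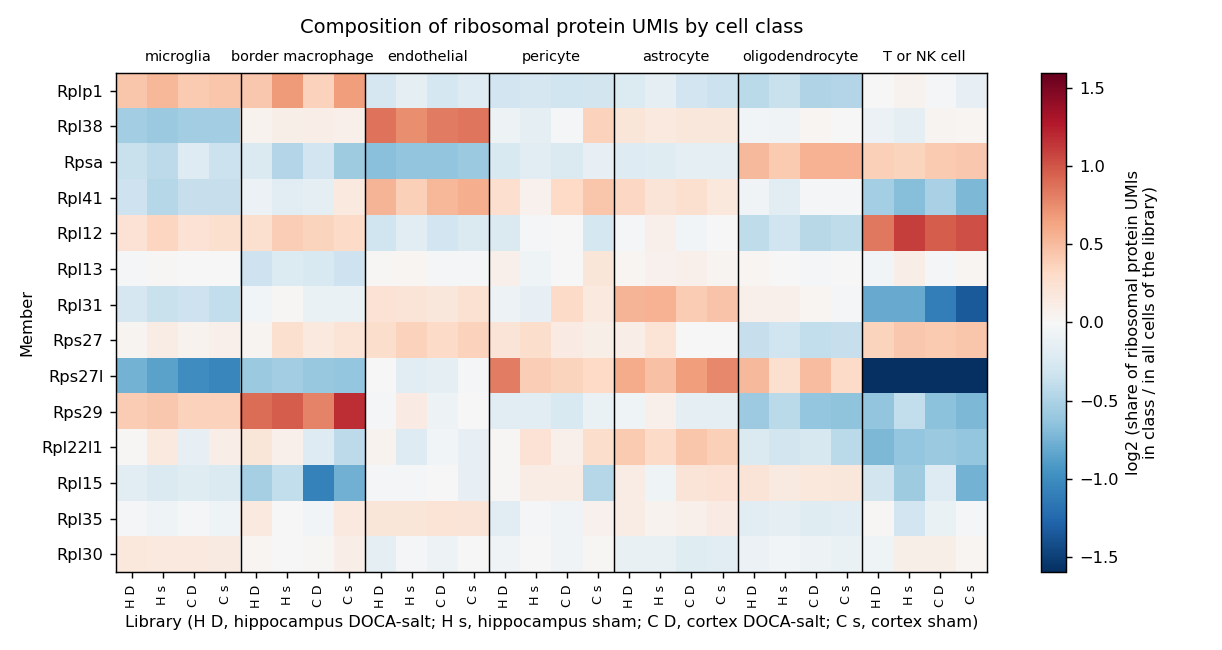
Composition of ribosomal protein UMIs: rows are members, columns are cell classes with the 4 libraries side by side, and colour is the log2 ratio of a member's share in the class to its share in all cells of that library, with the colour scale ending at 1.6 in both directions. Columns of 1 class look alike, as for Rplp1 in microglia-like cells (4.38% to 4.42%) and Rpl38 in endothelial-like cells (1.72% to 2.02%).

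Of the 79 members whose composition was compared, the paralogs Rps27l and Rpl22l1 varied most between classes as a part of all ribosomal protein UMIs, 12.3-fold and 4.66-fold between highest and lowest class. Rpl7l1, Rpl39l and Rpl3l were too low to be among the 79. Reads of near-identical copies can be divided differently between paralog and parent by the counting, so the differences between classes are given and not the absolute ratio of a pair. Rpl22 is needed for T cell development in mice, and its loss there raises Rpl22l1. In neuron-like cells Rpl22l1 made up 69.3% (64.6% to 73.8%) of the pair in DOCA-salt hippocampus and 68.7% (63.8% to 73.3%) in sham hippocampus. In astrocyte-like cells it made up 43.4%, 39.7%, 44.0% and 41.2% in DOCA-salt hippocampus, sham hippocampus, DOCA-salt cortex and sham cortex, in that order in microglia-like cells 35.6%, 35.5%, 35.0% and 35.3%, and in T or NK-like cells 24.3%, 23.5%, 27.8% and 22.8%. Between treatments the part of Rpl22l1 hardly differed in microglia-like cells, while in endothelial-like cells it was 33.1% in DOCA-salt and 25.9% in sham in hippocampus and 32.4% in DOCA-salt and 28.9% in sham in cortex. In oligodendrocyte-like cells it was 31.2% in DOCA-salt and 28.6% in sham in hippocampus and 32.0% in DOCA-salt and 27.6% in sham in cortex. Both differences exceeded the counting intervals, and no replicate check was possible.

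Rps27l, known as a target of the tumour suppressor Trp53, made up 31.3% of the Rps27 pair in choroid plexus-like cells of sham hippocampus and 24.2%, 26.9%, 27.2% and 28.2% in oligodendrocyte-like cells of DOCA-salt hippocampus, sham hippocampus, DOCA-salt cortex and sham cortex. In microglia-like cells it was 9.03%, 11.3%, 8.95% and 10.1%, and in T or NK-like cells 3.04%, 2.52%, 3.33% and 1.52%. In microglia-like cells the CPM of Rps27l differed little, at 123 in DOCA-salt and 120 in sham in hippocampus and 119 in DOCA-salt and 107 in sham in cortex. Its parent Rps27 had 1235 CPM in DOCA-salt and 942 CPM in sham in hippocampus and 1215 CPM in DOCA-salt and 951 CPM in sham in cortex. Rpl7l1 had 65.0 CPM in DOCA-salt and 59.5 CPM in sham in hippocampus, and 58.8 CPM in DOCA-salt and 68.3 CPM in sham in cortex, the lowest ratio of any member in cortex microglia-like cells at 0.861 (0.787 to 0.941). Its parent Rpl7 had ratios of 1.13 in both tissues.

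The rare tissue-specific paralogs had few UMIs. Rpl39l, known for its role in male germ cells of mice, had 376 UMIs over the series, and most of them lay in microglia-like cells. There it had 88 UMIs in DOCA-salt and 27 in sham in hippocampus, a ratio of CPM of 2.65 (1.70 to 4.24), and 90 in DOCA-salt and 42 in sham in cortex, a ratio of 2.19 (1.5 to 3.24). These were the largest ratios of any member in microglia-like cells, at 0.417% and 0.203% of the Rpl39 pair in DOCA-salt and sham hippocampus and 0.469% and 0.266% in DOCA-salt and sham cortex. Rpl39 itself had ratios of 1.29 in hippocampus and 1.24 in cortex. Whether reads of other copies add to Rpl39l was not tested.

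Rpl3l, known from heart and skeletal muscle, had 191 UMIs over the series. In pericyte-like cells it had 8 UMIs in DOCA-salt and 0 in sham in hippocampus and 12 in DOCA-salt and 0 in sham in cortex. In endothelial-like cells it had 11 in DOCA-salt and 0 in sham in hippocampus and 4 in DOCA-salt and 0 in sham in cortex. Border macrophage-like cells had 7 in DOCA-salt and 0 in sham in hippocampus and 8 in DOCA-salt and 0 in sham in cortex. With 3 UMIs put in place of each 0, the ratio of CPM was 1.38 in hippocampus and 2.42 in cortex in pericyte-like cells. It was 3.21 and 1.42 in endothelial-like and 2.19 and 2.25 in border macrophage-like cells, in that order of tissues. These ratios are not lower limits of a counting interval. In astrocyte-like cells, which held the most UMIs of Rpl3l among the classes compared, it had 15 UMIs in DOCA-salt and 3 in sham in hippocampus and 25 in DOCA-salt and 31 in sham in cortex, so the order of the treatments differed between tissues there.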

How the data were processed

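The authors deposited 1 matrix of UMI counts per library, made with a SeekOne DD 3′ kit per the labels. Named in the submitters' processing notes are GRCm38, fastp, STAR, Subread and Seurat; versions, annotation release and strand are not given in the sources used here. Symbols are those of the deposited files, and coordinates come from GENCODE for 32158 of 32285 genes.

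The members, marker lists and gene lists were chosen with earlier results of these data known. A marker passed in a cell when its share of UMIs exceeded the library mean, and a class needed 50% of its markers passing and a lead of 25 points, a rule settled after seeing the cell counts it gave. Cells near the limit were 5.74% to 7.13% of those assigned. No doublet caller was run, and cells reaching 2 classes without a lead were left out. UMIs were summed per class and library. Classes with at least 20 cells and 1000 ribosomal protein UMIs in each of the 4 libraries were compared. Shares carry exact binomial intervals, ratios exact intervals conditional on the sum, and 0 counts a floor of 3.

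Named were members fixed by role (Rps4l had no row), 4 highest and 4 lowest by median ratio per tissue, and 8 by spread of composition. A few of these genes are not reported here. Scripts used Python 3.11.15, pandas 2.3.3, numpy 2.4.6 and scipy 1.17.1, and were tested on simulated data. Alternatives changed the gate, filter, total, averaging, depth, centring, minimum and fold.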

Additional observations from a re-analysis of the deposited data

Results flagged for a closer look

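Of 16 pairs of share ratios and 74 pairs of member ratios in a class, those below lay on opposite sides of 1 in the 2 tissues or treatments, with counting intervals that leave out 1 in both; the differences between the pairs were not tested. The share of erythroid-like cells, DOCA-salt over sham, was 0.850 in hippocampus and 1.56 in cortex. Hippocampus over cortex, it was 0.839 under DOCA-salt and 1.54 under sham in erythroid-like cells, 0.981 under DOCA-salt and 1.05 under sham in endothelial-like cells, and 1.07 under DOCA-salt and 0.975 under sham in T or NK-like cells. Erythroid-like cells of sham cortex numbered 32 and those of DOCA-salt hippocampus 107.

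Among members, Rpl15, DOCA-salt over sham, had 0.922 in hippocampus and 1.51 in cortex in oligodendrocyte-like cells, and 0.918 in hippocampus and 1.83 in cortex in endothelial-like cells. Rpl10 had 0.970 in hippocampus and 1.05 in cortex in oligodendrocyte-like cells.

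Rows left out of the members also held UMIs over the 4 libraries, above the 3 that a count of 0 allows: Rpl9-ps6 had 3207, Rpl10-ps3 1990, Rpl36a-ps1 76 and Rpl9-ps1 10, all named as pseudogenes, and Rps27rt, whose symbol does not match the rule, 1827. Also outside the rule, Rpl36al had 79113, Fau 477318 and Rack1 131121 UMIs.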

How the results depend on the processing

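Intervals hold counting error only, so small moves pass them. Among results answering a comparison, 34 recomputed values stayed within the interval or within 1.5 times the count, 30 moved and 3 changed side; for others the numbers were 225, 164 and 7. The microglia-like share in DOCA-salt hippocampus, sham hippocampus and sham cortex was 9.35%, 8.09% and 8.50% with a stricter gate. Without mitochondrial and haemoglobin UMIs it was 9.57%, 8.16%, 10.1% and 8.57%, and as a mean of cells 9.33%, 8.10%, 9.79% and 8.30%, over DOCA-salt hippocampus, sham hippocampus, DOCA-salt cortex and sham cortex. The microglia-like ratio, DOCA-salt over sham, in hippocampus and cortex was 1.16 and 1.17 (gate), 1.17 and 1.18 (without those UMIs), 1.15 and 1.18 (mean of cells) and 1.16 and 1.18 (thinned to 1000 UMIs). Another 2 alternatives were chosen after seeing the data. With at most 0.5% of UMIs from other classes' markers the ratio was 1.24 in cortex, on 630 of 2472 and 2088 of 2620 cells in DOCA-salt and sham. Without the 50 most counted other genes it was 1.15 in cortex. The oligodendrocyte-like ratio in hippocampus was 1.01 without mitochondrial and haemoglobin UMIs, 1.0 thinned, 1.03 with the 0.5% limit and 0.999 without the 50 genes. In cortex it was 1.01, 0.995 as a mean of cells and 0.997 thinned.

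Hippocampus over cortex, the microglia-like ratio was 0.943 with the stricter gate under DOCA-salt and 0.964 thinned under sham. Members over 1.2-fold higher in microglia-like cells numbered 35 in hippocampus after centring on the median of all genes, with no share of all genes computed under that centring. Over 1.5-fold, 2 were counted in hippocampus and 3 in cortex, Rpl39l among them in both. Changing side of 1 were the ratios, DOCA-salt over sham in hippocampus, of pericyte-like cells thinned (1.01) and of erythroid-like cells without mitochondrial and haemoglobin UMIs (1.2) and without the 50 genes (1.17). Hippocampus over cortex, erythroid-like cells without mitochondrial and haemoglobin UMIs gave 1.15 under DOCA-salt and 0.988 under sham, and under sham pericyte-like cells gave 1.04 with the stricter gate and T or NK-like cells 1.02 thinned. For erythroid-like cells the alternative removes haemoglobin, most of their UMIs; for the other moves the cause was not tested.

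The 0.5% limit gave no value for 7 classes of hippocampus, microglia-like cells among them, and 2 of cortex, since under 10 cells remained in a library. No paired analysis was possible because each group is 1 library without replicate numbers. Leaving out a library would leave its group empty.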
